A study of Mus musculus with 12 samples.

Results

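The keratin genes of the mouse were examined for trimethylation of histone H3 at lysine 27 (H3K27me3) in epidermis with and without Utx. All protein-coding RefSeq genes of the mouse build GRCm38 (mm10) whose symbol is Krt followed by digits and an optional letter were taken, which gave 53 of 21631 protein-coding genes on chromosomes 1 to 19 and X. Of these, 27 lie in the type I cluster on chromosome 11 and 26 in the type II cluster on chromosome 15. Krt18 is counted with the chromosome 15 cluster although it encodes a type I keratin. Krt74, annotated as a transcribed pseudogene, was not included.

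H3K27me3 was mapped by CUT&RUN, an assay that uses an antibody to bring a nuclease to the mark and then sequences the fragments it frees, on dissociated epidermal cells of female mice. The WT group was Cre-; Utx fl/fl and the Utx-cKO group was Cre+; Utx fl/fl, so all animals carried floxed Utx alleles and the Krt14-Cre driver marks the difference. Krt14-Cre deletes Utx (Kdm6a) in keratin 14 expressing tissues, and cells of other lineages in the suspension keep the gene. The labels do not state the ages of the animals. Each genotype had 3 animals, each with an H3K27me3 and an IgG library, 12 libraries in all. The data analysed were 2 peak lists, each called on the merged libraries of a genotype, with 7826 peaks in WT and 8914 in Utx-cKO. The values below therefore carry no error between animals, and the genotypes are set side by side without a test. Sequencing depth is unknown, and each interval given beside a share is the exact 95% interval of Clopper and Pearson for counting error only.

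Keratins are the intermediate filament proteins of epithelial cells, and each filament pairs a type I with a type II keratin. Basal cells of the epidermis make Krt5 and Krt14, suprabasal cells switch to Krt1 and Krt10, simple epithelia such as gut and liver make Krt8 and Krt18, and the hair follicle uses its own sheath and shaft keratins. H3K27me3 is laid down by Polycomb repressive complex 2 and marks silenced genes, and Utx is an X-linked demethylase that removes it. In a bulk suspension a peak averages over all cell types present. Fewer cells carrying the mark and less of the mark per cell cannot be told apart.

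Keratin genes carried H3K27me3 peaks about as often as other genes. The marked genes lay under a single strong domain over the simple-epithelial pair Krt8 and Krt18 and under weaker peaks, mostly over follicle keratins. A gene was called marked when at least 1 bp of a peak lay in its body or within 2 kb of it. In WT 8 of 53 keratin genes were marked (15.1%, interval 6.75 to 27.6%), on 4 distinct peaks, and in Utx-cKO 11 (20.8%, 10.8 to 34.1%), on 7 distinct peaks. Over all protein-coding genes the same rule marked 18.0% in WT and 19.5% in Utx-cKO. Among the 8700 autosomal genes no shorter or longer than keratin genes, Krt78 aside, it marked 12.6% and 14.4%. The same 6 genes were marked in both lists, namely Krt25, Krt26, Krt27, Krt78, Krt8 and Krt18, and 40 were marked in neither.

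**Figure D1:**
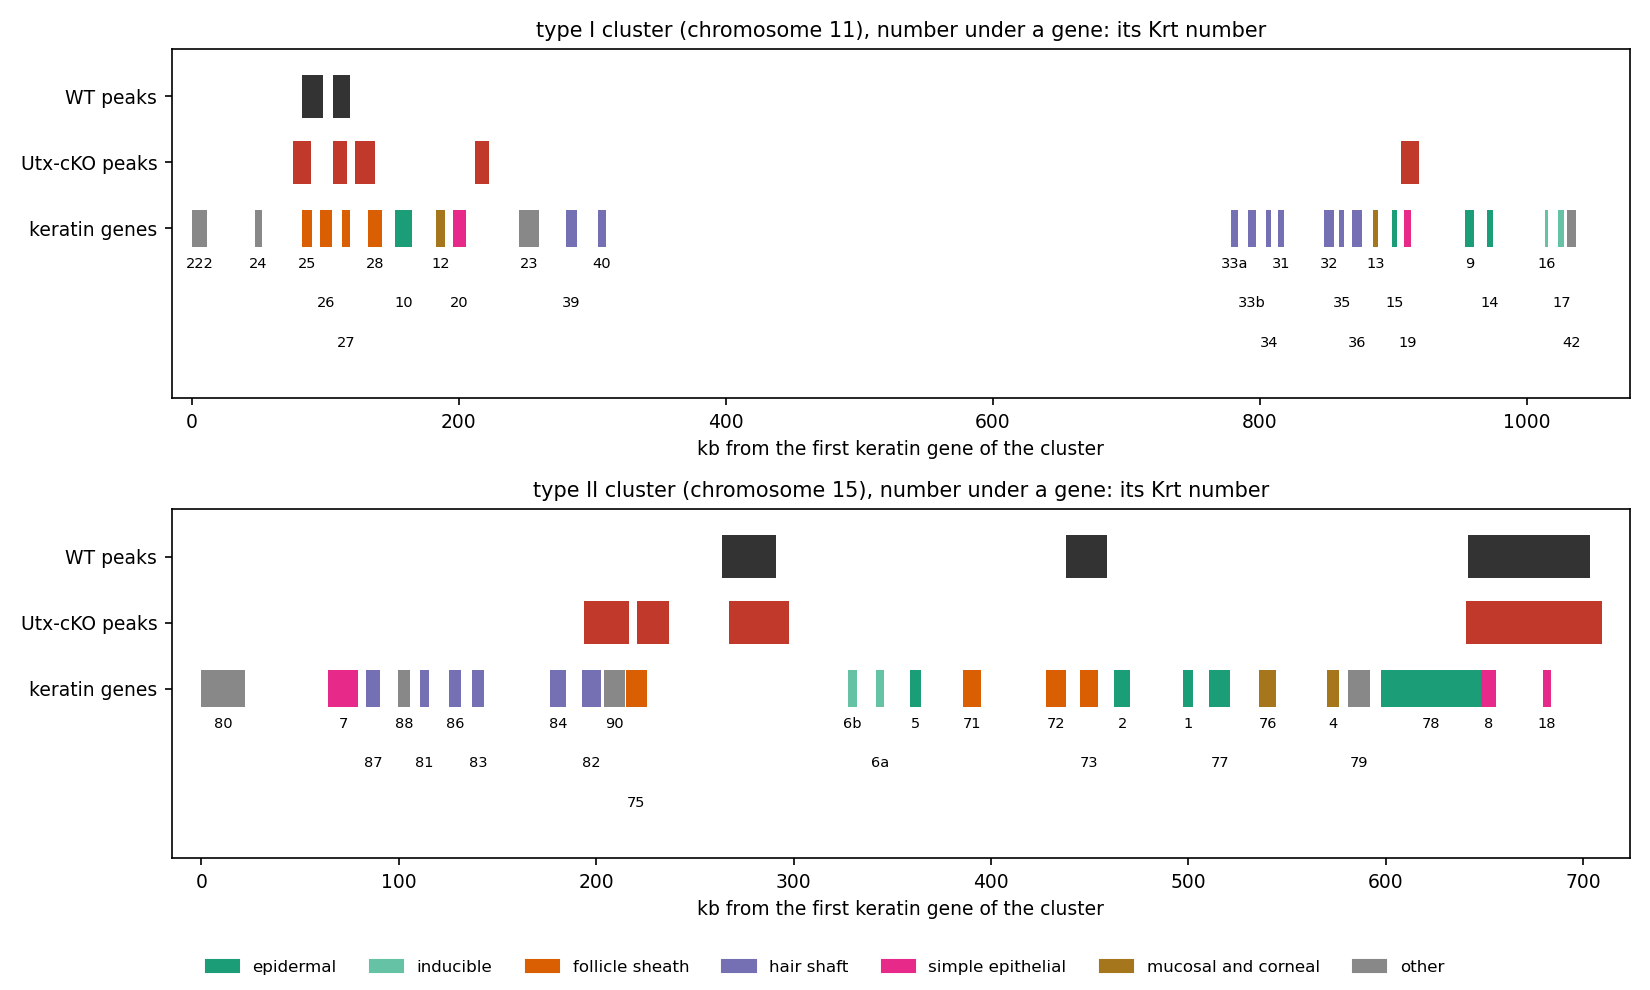
Map of the type I and type II keratin clusters, with the horizontal axis in kb from the first keratin gene, black boxes for WT peaks, red boxes for Utx-cKO peaks and keratin genes coloured by class. The shared domain at the right end of the type II cluster lies over Krt8 and Krt18, and the middle of the type I cluster holds no peak.

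By cluster, the WT list marked 3 of 27 genes on chromosome 11 and the Utx-cKO list 5, against 13.1% and 15.8% of all protein-coding genes of that chromosome. On chromosome 15 the WT list marked 5 of 26 and the Utx-cKO list 6, against 20.6% and 19.3% of the genes of that chromosome. By class, most of the marked genes were follicle sheath and simple-epithelial keratins, 7 of 8 in WT and 8 of 11 in Utx-cKO, and the others were Krt78 in both lists and Krt82 and Krt90 in Utx-cKO. Of 8 follicle sheath keratins, which form the inner root sheath and companion layer around the growing hair, each list marked 5 (62.5%, 24.5 to 91.5%), and 3 were marked in both. Of 5 simple-epithelial keratins, the WT list marked 2 and the Utx-cKO list 3. Of 15 hair shaft keratins, which build the hard fibre of the hair, 0 were marked in WT (0 to 21.8%) and 1 in Utx-cKO, which was Krt82, a keratin of the hair cuticle. None of the 4 inducible keratins (Krt6a, Krt6b, Krt16 and Krt17, made in wounds and in appendages) and none of the 4 mucosal and corneal keratins (Krt4, Krt12, Krt13 and Krt76) was marked in either list. Of the 8 keratins outside these classes only Krt90, in Utx-cKO, was marked, and Krt78 was the only epidermal keratin called. Each class holds few genes, neighbours share peaks, and these shares were not tested against each other. The classes were chosen with earlier results of these data known.

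**Figure D2:**
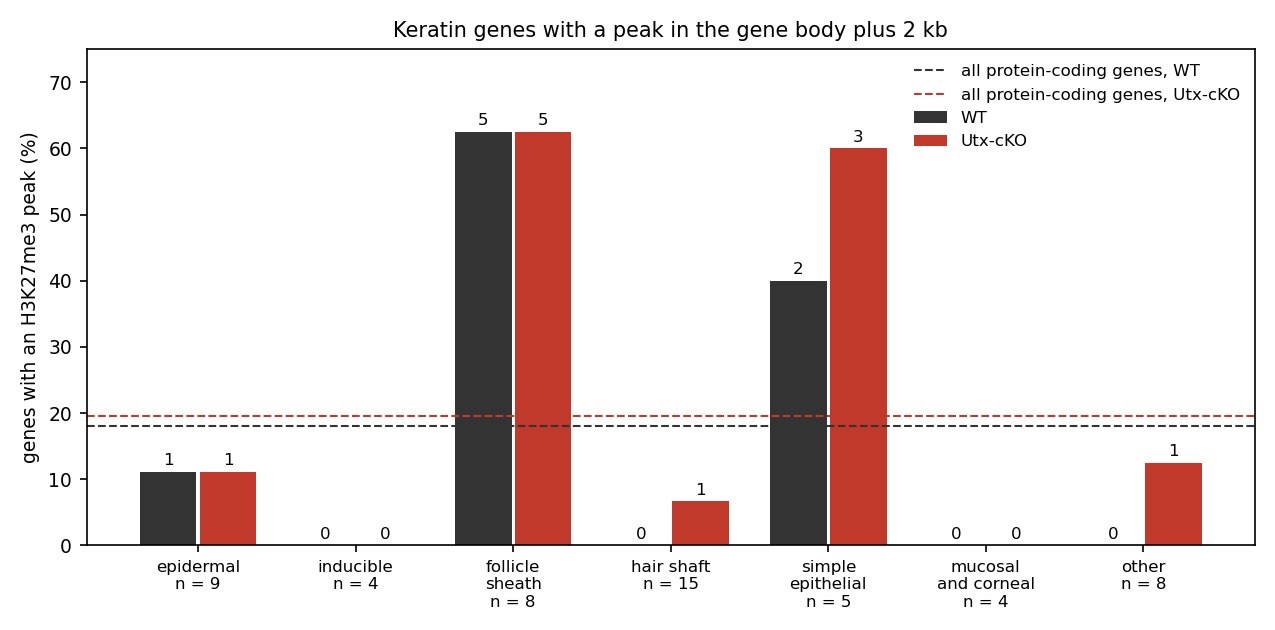
Share of the genes of each keratin class with a peak in the gene body plus 2 kb, in percent, with black bars for WT, red bars for Utx-cKO, the number of marked genes above each bar and dashed lines for all protein-coding genes (18.0% and 19.5%). Follicle sheath and simple-epithelial keratins stand above the dashed lines, and inducible and mucosal and corneal keratins are at 0.

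Of 9 epidermal keratins only Krt78, made in differentiating layers, was called, in both lists. The call rests on the annotation. The RefSeq gene (chromosome 15, 101946001 to 101996624) reaches to within 87 bp of Krt8, whereas its transcription start in the promoter table lies at 101954287. The nearest peak to that start was 35614 bp away in WT and 34814 bp away in Utx-cKO, and it is the Krt8 and Krt18 domain. Without Krt78, 0 of 8 epidermal keratins were marked in either list (0 to 36.9%), an interval that holds the shares over all protein-coding genes, 18.0% and 19.5%.

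The main epidermal keratins lay away from peaks, but no farther than other unmarked keratins did. The median distance to the nearest peak for the 8 unmarked epidermal keratins was 59.7 kb in WT and 55.8 kb in Utx-cKO. Over all unmarked keratins it was 132 kb and 64.5 kb. Krt5, the type II keratin of basal cells (chromosome 15, 101707069 to 101712905), lay 67619 bp from the nearest WT peak and 60869 bp from the nearest Utx-cKO peak. Krt14, its type I partner and the source of the Cre driver (chromosome 11, 100203162 to 100207510), lay 852312 bp away in WT and 50812 bp away in Utx-cKO. Krt1, the suprabasal type II keratin (101845426 to 101850786), lay 38476 bp from a WT peak and 138315 bp from a Utx-cKO peak. For its partner Krt10 (99385254 to 99397449) the distances were 34404 bp and 15354 bp. These genes are the defining markers of the labelled tissue, and none of the 4 basal markers (Krt5, Krt14, Trp63 and Itga6) or 2 suprabasal markers had a peak. All 6 markers of other cell types were marked in both lists, namely Vim and Col1a1 (fibroblasts), Dct and Kit (melanocytes) and Ptprc and Cd207 (immune cells). Over all protein-coding genes the rule marked 18.0% in WT and 19.5% in Utx-cKO. These few chosen markers were not tested against those shares. The epidermal keratin nearest to a peak without touching it was Krt15, a keratin of basal cells and of the follicle bulge, at 2552 bp from a Utx-cKO peak. In WT it was Krt2, a late suprabasal keratin, at 3739 bp.

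The strongest keratin domain covered Krt8 and Krt18 in both lists. Krt8 and Krt18 pair in simple epithelia and are the earliest keratins of the embryo. They are transcribed away from each other, from starts 23874 bp apart, and both gene bodies and the whole interval between their starts lay under the peak in each list. The WT peak ran from 101989901 to 102052050 on chromosome 15, was 62150 bp wide and had a maximum signal of 39.7. The Utx-cKO peak ran from 101989101 to 102057750, was 68650 bp wide and had a maximum signal of 40.4. The signal values are the authors' own scores for each peak, on an unstated scale, and they serve only to rank peaks within a list. By total signal the domain stood at percentile 98.6 in WT and percentile 98.7 in Utx-cKO. On chromosome 15 it ranked 2 of 245 peaks in WT and 3 of 274 in Utx-cKO.

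The borders of this domain were similar in the lists. The Utx-cKO peak began 800 bp earlier and ended 5700 bp later, so that it contained the WT peak whole, and 90.5% of it was covered by the WT peak. Its far end lay 21723 bp short of Eif4b, a translation initiation factor gene, in WT and 16023 bp short in Utx-cKO. The maximum lay elsewhere in each list. In WT it was 2091 bp upstream of the Krt18 start. In Utx-cKO it was 4283 bp upstream of the Krt8 start, 17500 bp from the WT position. Mean signal per base was 2.48 times the autosomal median of its list in WT and 2.55 times in Utx-cKO.

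**Figure D3:**
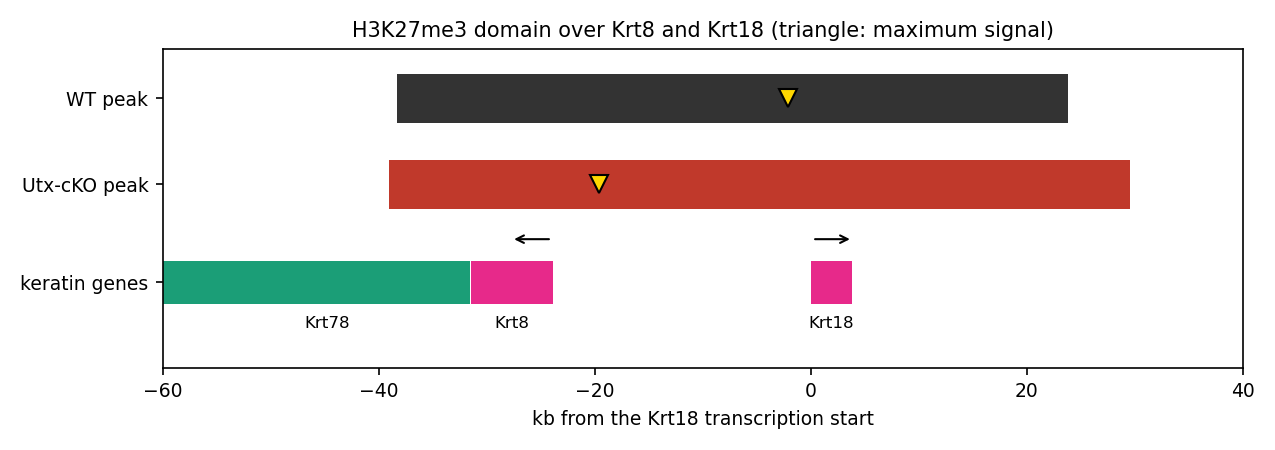
The H3K27me3 domain over Krt8 and Krt18, with the horizontal axis in kb from the Krt18 transcription start, bars for the WT and Utx-cKO peaks, triangles at their maximum signal and arrows for the direction of transcription. Both peaks span both genes, the Utx-cKO peak extends 5700 bp farther to the right, and the part of Krt78 that it meets is the far end of its annotated body.

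The other simple-epithelial keratins differed from this pair. Krt19, the smallest keratin, made in simple epithelia and in follicle stem cells, was marked in Utx-cKO alone (chromosome 11, 100138501 to 100152350). That peak spanned 13850 bp, reached a maximum signal of 15.3, covered 100% of the gene body, had its maximum inside the gene, and stood at percentile 35.3 of the Utx-cKO list. The nearest WT peak was 787651 bp away from it. Krt7, a keratin of glands and ducts, lay 184195 bp from the nearest WT peak and 114395 bp from the nearest Utx-cKO peak. Krt20, a keratin of the gut lining, was unmarked in both, at 77535 bp from a WT peak and 6748 bp from a Utx-cKO peak.

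Inner root sheath keratins of the type I cluster lay at peaks below the middle of their list by total signal. These were Krt25 to Krt27 in both lists and Krt28 in Utx-cKO alone. The sheath moulds the hair shaft as it grows, and these keratins are made in its layers. In WT a peak from 99315101 to 99331150 covered 100% of Krt25 and 28.1% of Krt26, and another from 99338501 to 99350850 covered 95.2% of Krt27. Their WT percentiles were 43.4 and 39.98. In Utx-cKO the peaks ran from 99308801 to 99321650 (82.5% of Krt25), from 99338601 to 99348800 (58.3% of Krt27) and from 99354801 to 99369900 (49.4% of Krt28). Their percentiles in the Utx-cKO list were 22.95, 44.9 and 29.8. Krt26 was called in Utx-cKO only through the flank of the gene, 636 bp from its body. The Krt28 peak overlapped no WT peak but lay only 3951 bp beyond the border of the WT peak at Krt27.

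The positions of these peaks relative to the starts of the genes also varied. In WT the Krt25 start lay under a peak, and the starts of Krt26 and Krt27 were 536 and 268 bp outside. In Utx-cKO all 4 starts lay outside, at 1301 bp for Krt25, 636 bp for Krt26, 2318 bp for Krt27 and 5003 bp for Krt28. The peaks at Krt25 overlapped over 6550 bp, which is 40.8% of the WT peak and 51.0% of the Utx-cKO peak. The peak at Krt26 and Krt27 was shared over 10200 bp, 82.6% of the WT peak and 100% of the Utx-cKO peak.

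Follicle keratins of the type II cluster were marked in different places in the lists. In WT alone a peak from 101786451 to 101806950 covered 100% of Krt73 and the start of Krt72, both inner root sheath keratins. Of the Krt72 body this peak covered only 70 bp (0.676%). It had a maximum signal of 7.27, at percentile 5.62 of that list by maximum signal and 22.1 by total signal. The nearest Utx-cKO peak was 140251 bp away. In Utx-cKO alone a pair of peaks lay over Krt82, Krt90 and Krt75, the last a keratin of the companion layer. The peak from 101542201 to 101564950 covered 89.6% of Krt82 and 100% of Krt90, and the peak from 101568801 to 101585400 covered the Krt75 start. They stood at percentiles 52.96 and 46.9, were 3850 bp apart and together covered 63.5% of Krt75. The nearest WT peak was 47051 bp from the former and 26601 bp from the latter. Krt71, a further inner root sheath keratin, was unmarked in both lists, at 43354 bp from a WT peak and 87749 bp from a Utx-cKO peak.

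Marking in a single list concerned more keratin genes in Utx-cKO. Krt28, Krt19, Krt82, Krt90 and Krt75 were marked in Utx-cKO alone (5 of 53, 9.43%, on 4 peaks). Krt72 and Krt73 were marked in WT alone (2 of 53, 3.77%, on 1 peak). Over all protein-coding genes the shares were 3.13% for Utx-cKO alone, 1.64% for WT alone and 16.4% for both lists together. Among the keratin peaks, 3 of 4 in WT and 3 of 7 in Utx-cKO overlapped a peak of the other list, against 87.9% and 77.5% of all autosomal peaks. Among autosomal peaks within 10 percentile points of the same rank, a counterpart was found for 76.1% at the rank of the WT peak at Krt72 and Krt73. At the ranks of the Utx-cKO peaks it was found for 67.0% (Krt28), 73.5% (Krt19), 85.2% (Krt75) and 89.4% (Krt82 and Krt90). A peak missing from a list means that the region was not called there, and with merged libraries it cannot be set against the spread between animals.

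**Figure D4:**
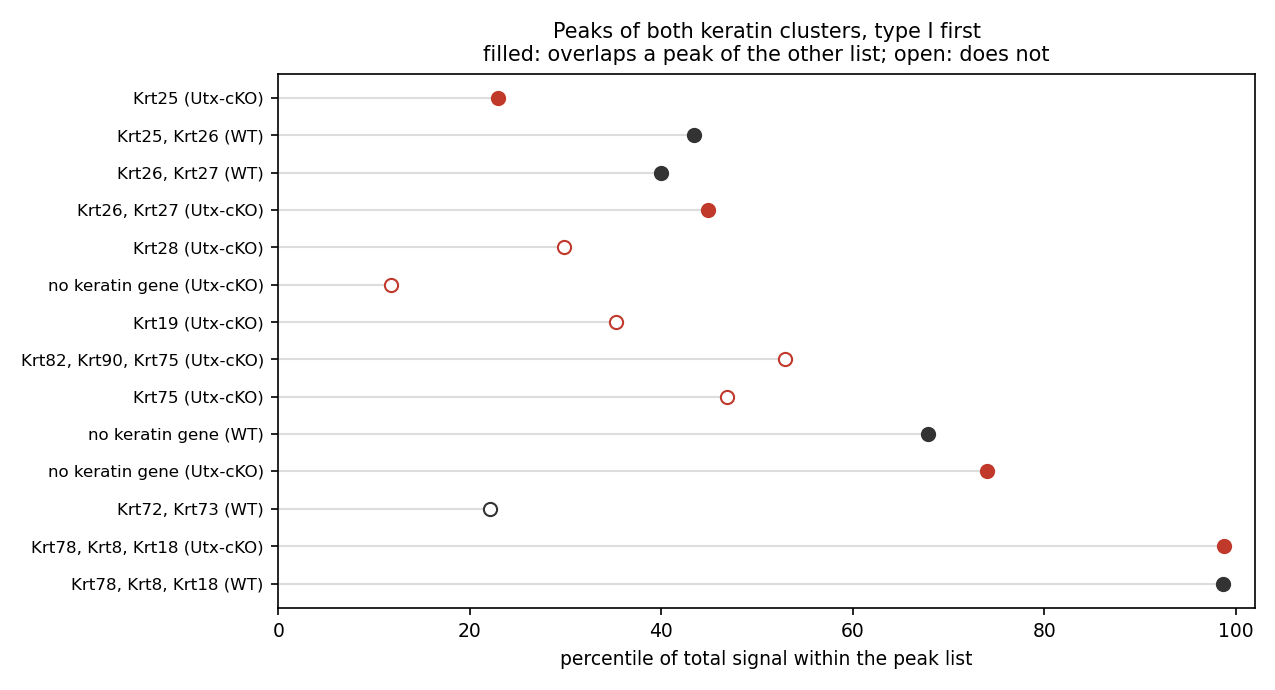
Percentile of total signal, within its own list, of each peak in the type I and type II clusters, ordered along the chromosomes, in black for WT and red for Utx-cKO, with open circles for peaks that overlap no peak of the other list. Only the Krt8 and Krt18 domain lies near the top, at 98.6 and 98.7, and the open circles lie at or below 52.96.

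Measured as covered length, the type I cluster held less of the mark than chromosome 11 as a whole. The type II cluster held more than chromosome 15, with the Krt8 and Krt18 domain and a peak at the gene model Gm5414 counted in. The type I cluster runs from Krt222 to Krt42 (99232761 to 100269951). Peaks covered 28.4 kb of it in WT (2.74%) and 62.4 kb in Utx-cKO (6.02%), against 6.41% and 7.33% of the gene span of chromosome 11. The longest stretch without a peak was 919 kb in WT, holding 22 keratin genes, and 683 kb in Utx-cKO, holding 12. Both stretches contained all 23 keratin-associated protein genes of this chromosome, which encode the matrix of the hair shaft. All 9 hair shaft keratins of the type I cluster lay in these stretches as well. The type II cluster, from Krt80 to Krt18 (101348315 to 102032026), was covered over 90.1 kb in WT (13.2%) and 113 kb in Utx-cKO (16.5%), against 4.73% and 4.94% of chromosome 15. With the Krt8 and Krt18 domain taken out of the covered length, 7.01% and 10.3% of the span remained covered (47.95 kb in WT and 70.1 kb in Utx-cKO). This remainder includes a peak at the gene model Gm5414, 27450 bp wide in WT and 30750 bp in Utx-cKO. That peak reached the window of no keratin gene taken here by symbol, so the remainder is not all at the keratin genes counted. The other peaks of the remainder covered 20500 bp in WT (at Krt72 and Krt73) and 39350 bp in Utx-cKO (at Krt82, Krt90 and Krt75). Their share of the span was not computed or set against chromosome 15.

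Promoter windows of marked and unmarked keratins overlapped in CpG content. RefSeq windows of GRCm38.p6, from 250 bases before to 50 after the start, were found for 36 of the 53 genes. The windows below are those of the pair in the strong domain (Krt18 and Krt8) and of a marked sheath keratin outside it (Krt25). A basal and a suprabasal epidermal keratin without a peak (Krt5 and Krt10) follow. They are written 5′ to 3′, with each CpG dinucleotide in capitals, because CpG-rich promoters are known as sites of Polycomb recruitment.
Krt18, chr15:102027966-102028265, plus strand: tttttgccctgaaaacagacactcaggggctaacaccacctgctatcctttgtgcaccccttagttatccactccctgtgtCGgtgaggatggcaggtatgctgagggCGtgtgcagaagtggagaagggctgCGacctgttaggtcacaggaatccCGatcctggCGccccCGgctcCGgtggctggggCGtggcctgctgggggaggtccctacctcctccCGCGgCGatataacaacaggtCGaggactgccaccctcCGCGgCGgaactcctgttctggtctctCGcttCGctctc
Krt8, chr15:102004293-102004592, minus strand: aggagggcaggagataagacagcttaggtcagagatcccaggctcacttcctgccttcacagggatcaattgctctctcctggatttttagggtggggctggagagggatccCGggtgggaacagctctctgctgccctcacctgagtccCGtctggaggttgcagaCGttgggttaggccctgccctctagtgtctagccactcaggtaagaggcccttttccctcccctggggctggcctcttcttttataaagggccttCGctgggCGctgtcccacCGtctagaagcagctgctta
Krt25, chr11:99322902-99323201, minus strand: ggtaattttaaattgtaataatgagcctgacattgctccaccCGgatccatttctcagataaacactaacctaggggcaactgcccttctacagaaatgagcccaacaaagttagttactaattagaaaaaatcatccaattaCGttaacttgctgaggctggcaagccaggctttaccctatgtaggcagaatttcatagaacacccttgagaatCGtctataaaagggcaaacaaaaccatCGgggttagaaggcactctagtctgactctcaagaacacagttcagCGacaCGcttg
Krt5, chr15:101712856-101713155, minus strand: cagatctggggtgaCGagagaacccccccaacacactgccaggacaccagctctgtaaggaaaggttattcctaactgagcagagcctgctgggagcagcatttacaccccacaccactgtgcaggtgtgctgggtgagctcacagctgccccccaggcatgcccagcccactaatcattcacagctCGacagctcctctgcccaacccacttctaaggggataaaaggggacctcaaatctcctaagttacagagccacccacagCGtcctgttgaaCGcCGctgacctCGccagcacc
Krt10, chr11:99389315-99389614, minus strand: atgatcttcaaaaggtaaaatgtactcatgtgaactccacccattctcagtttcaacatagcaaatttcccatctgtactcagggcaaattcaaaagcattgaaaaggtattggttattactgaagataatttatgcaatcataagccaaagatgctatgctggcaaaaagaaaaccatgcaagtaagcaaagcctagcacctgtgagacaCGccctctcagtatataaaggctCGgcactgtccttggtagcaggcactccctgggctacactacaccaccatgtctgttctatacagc

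Krt18 has 17 CpG in this window, while Krt8, in the same domain, has 6. The unmarked Krt5 and the marked sheath keratin Krt25 also have 6 each, and Krt10 has 2. Across the 36 keratin windows the median was 5 CpG (2 to 21), against 7 (0 to 67) over all 32851 windows of the table. The richest keratin window, that of Krt7 with 21 CpG, belongs to a gene without a peak. Starts under a peak in either list had a median of 6 CpG (8 genes) and the others a median of 4 (28 genes). The letters TATAAA, searched on both strands, occurred in 19 of 36 keratin windows (52.8%) against 13.6% of all windows, and in 7 of 12 windows of marked genes and 12 of 24 of unmarked genes. They occur in the Krt8, Krt25 and Krt10 windows and not in those of Krt18 and Krt5. A match or its absence describes the letters of this window only.

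**Figure D5:**
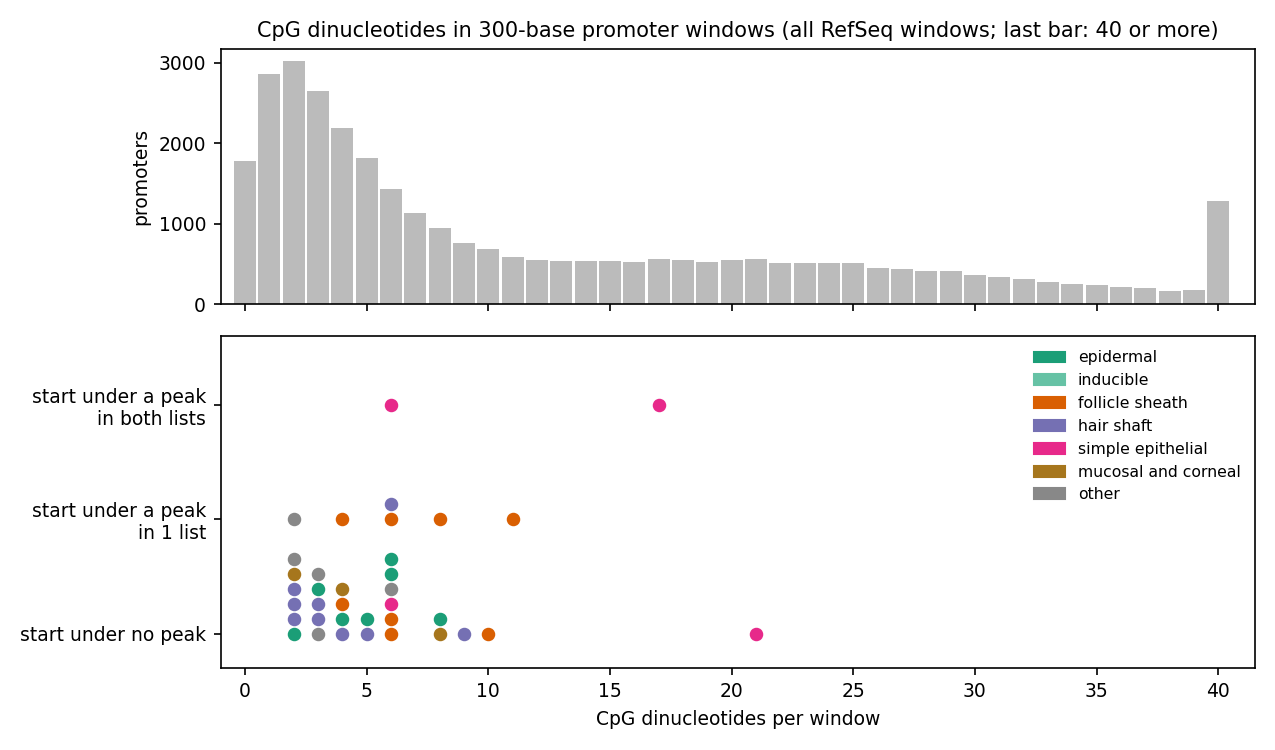
CpG dinucleotides per 300-base promoter window, with the number of windows in the whole table above and 36 keratin genes below, coloured by class and placed by whether their transcription start lay under a peak in neither, 1 or both lists. Krt18 at 17 CpG lies under a peak in both lists, and Krt7 at 21 CpG lies under none.

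A covered transcription start is a stricter call than a marked gene, because the start lies inside the window of the marking rule. Fewer covered starts than marked genes therefore say nothing about where the mark sits. Of the 36 genes with a known start, 8 were marked in WT and the start itself was covered in 5, namely Krt25, Krt72, Krt73, Krt8 and Krt18. In Utx-cKO 10 were marked and the start was covered in 5, namely Krt82, Krt90, Krt75, Krt8 and Krt18. Krt8 and Krt18 alone had a covered start in both lists. The share of covered starts over all genes was not computed, so these counts cannot be called high or low.

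Genes that work with keratins were set beside them by the same rule, which marked 18.0% of all protein-coding genes in WT and 19.5% in Utx-cKO. The WT list marked 3 of 56 keratin-associated protein genes (5.36%) and the Utx-cKO list 4 (7.14%), all on chromosome 7. Krtap5-2, Krtap5-1 and Krtap5-4 were marked in both, and Krtap5-5 in Utx-cKO alone at percentile 30.8. Of 16 partners that anchor or bundle keratin filaments, 3 were marked in each list (18.75%, near the share over all genes), namely Dst, a plakin of the hemidesmosome, Pkp2, a desmosomal plaque protein, and Tchh, the matrix protein of the inner root sheath. Of 12 transcription factors that act on keratin genes, the same 4 were marked in each list (33.3%), namely Hoxc13, a driver of hair keratins, Lef1, a Wnt effector of the hair matrix, Gata3, a factor of the inner root sheath, and Prdm1. Most other intermediate filament genes had a peak, 8 of 15 in WT (53.3%) and 10 of 15 in Utx-cKO (66.7%). Vim, the mesenchymal filament, Nes, a neural progenitor filament, Nefl, a neurofilament, and Des, the muscle filament, were among those marked in both. Nefm, a neurofilament, and Synm, a filament linker of muscle, had a peak only in the Utx-cKO list, which stood at percentile 20.2 for Nefm and 11.1 for Synm.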

How the data were processed

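The authors' deposited tables are peak lists without column headers, read in the order of SEACR output: chromosome, start, end, total signal, maximum signal and place of the maximum. Per the file headers, peaks were called with SEACR (spelled SECAR there) on data merged from all samples of a group. The signal of each peak is the authors' own deposited score, coverage summed over the peak or its highest coverage, and its normalization is not stated. The submitters' processing notes name deepTools, bedtools 2.27.1, SAMtools 1.9 and Bowtie2 2.3.4.3, and the builds mm10, GRCm38 and sacCer3. The caller's settings, and how reads that fit several near-identical keratin genes were placed, are not given by these sources. Libraries and IgG data per animal were not analysed here.

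Overlaps, covered lengths and percentiles were computed with Python 3.11.15, pandas 2.3.3 and NumPy 2.4.6, and intervals with SciPy 1.17.1. Overlap counting was tested on simulated peaks. Coordinates are 1-based. Gene borders came from RefSeq GRCm38.p6, and strand and starts from the 36 genes in the promoter table, of which 6 have a start over 100 bp inside the annotated border. Classes follow textbook roles, and they were also chosen with earlier results of these data known. Named were every keratin gene with a peak, the main epidermal and simple-epithelial keratins and, of other lists, members marked differently between the lists, plus up to 4 others in order of peak width. Further keratins named for their position (Krt7, Krt20, Krt71 and Krt2) were chosen after their values were seen. The members and lists were chosen with earlier results of these data known. Alternatives varied the window, the overlap and the peaks kept.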

Additional observations from a re-analysis of the deposited data

How the results depend on the processing

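Keeping only the top 50% of each list by total signal left 3 marked keratin genes in WT and 6 in Utx-cKO. It left 0 in the type I cluster in either list, with 0 kb covered, and 3 in the type II cluster in WT. The genes left were Krt78, Krt8 and Krt18 in both lists and Krt82, Krt90 and Krt75 in Utx-cKO. With a peak required within 2 kb of the transcription start, or of either gene end where no start was known, the WT list marked 7 genes and the Utx-cKO list 8, with 4 shared, and the type I cluster stood at 3 in Utx-cKO instead of 5. Krt78 was then no longer marked in either list, nor were Krt27 and Krt28 in Utx-cKO. With gene bodies alone the counts were 8 and 10, with a 5 kb window 9 and 12 (Krt2 added in WT and Krt15 in Utx-cKO), and with 1000 bp required under a peak 8 and 11. Keeping peaks above the lowest WT total signal, or equal numbers of peaks, gave 8 and 11, the same genes as the main rule. The former setting takes the signal of both lists to be on a common scale, which is not known. Utx-cKO had more marked keratin genes than WT under all 7 settings. The settings recount the same pooled lists, so they are not independent of each other. Under the main rule Utx-cKO also marked more of all protein-coding genes (19.5% against 18.0%). Shares over all genes were not computed under the other settings, so the higher counts there cannot be read as particular to keratins. No paired analysis was possible because each list merges its animals, and for the same reason no animal could be left out. Depth is unknown, so a region without a peak may hold signal below the caller's threshold.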

Other observations

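Both clusters also held peaks outside the windows of the keratin genes taken here by symbol. Between Krt75 and Krt6b a peak was called in both lists on chromosome 15, from 101612001 to 101639450 in WT and, in Utx-cKO, from 101615451 to 101646200, shared over 24000 bp, at percentiles 67.8 and 74.1 by total signal. It overlaps the protein-coding gene model Gm5414 in both lists and the gene model Gm5478 in Utx-cKO. It lay, after the Krt8 and Krt18 domain, highest of the peaks in the clusters in each list. Between Krt20 and Krt23 the Utx-cKO list alone held a peak (chromosome 11, 99444901 to 99455300) at percentile 11.8. Its total signal was 39607 and the lowest total of the WT list was 40307. The scale of the scores is unstated, so these totals do not show why WT has no peak there. Of autosomal Utx-cKO peaks of similar rank, 42.0% overlapped a WT peak.

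The Krt8 and Krt18 domain also overlapped the gene models Gm36026, Gm41404 and Gm41405 in both lists, none of them annotated as protein-coding.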
